A study of Mus musculus with 35 samples.

Results

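Aortas with a dissected aneurysm after 7 days of angiotensin II (Ang II) were set against aortas of saline-infused mice at the same time. The arrays were chosen by sample title and make up 9 of the 35 in the series, 3 dissected and 6 saline. Every mouse was a male apolipoprotein E knockout (ApoE-/-), so the knockout was common to both groups. At 12 to 14 weeks of age each received a subcutaneous osmotic minipump, which delivered Ang II at 1000 ng/kg/min to the dissected group and saline vehicle to the other. Another group of 4 mice received the same Ang II infusion for 7 days and is labelled as non-dissected aneurysm. It is used below only to show where the dissected aortas differed from it and which lists changed in it too against saline. The mice were perfused with saline at death, the whole suprarenal aorta was frozen, and each array held the RNA of 1 aorta. Surrounding tissue was therefore sampled as well, and the labels do not say how long before death an aorta had dissected.

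Each 2-colour array measured Cy5-labelled aortic RNA against a common Cy3-labelled mouse reference RNA. A level below is the log2 ratio of aorta to that reference, and a difference is the dissected mean minus the saline mean in log2 units with its standard error (SE). A gene is said to have risen or fallen where limma gave an adjusted p below 0.05 over all 18671 genes tested. In bulk tissue, fewer cells of a type and less RNA per cell cannot be told apart.

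The aortic wall holds its load with elastic fibres and collagens made by smooth muscle cells and fibroblasts. Ang II infusion in hyperlipidaemic mice is a standard model in which the suprarenal aorta may tear, blood enters the wall, and leukocytes gather in the outer coat. Metalloproteinases and cathepsins cut the matrix and are held back by tissue inhibitors, while platelets and the plasminogen system form and dissolve clot. Macrophages take up haemoglobin and break down its haem.

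The aorta channel was well above background at 47.2% to 50.6% of spots on the dissected arrays and at 50.1% to 62.2% on the saline arrays. Log ratios of 2 dissected arrays correlated at 0.875 to 0.952, those of 2 saline arrays at 0.741 to 0.955, and those of a dissected with a saline array at 0.603 to 0.759. All 3 dissected arrays were scanned on the second of 2 scan days, as were 3 of the 6 saline arrays, and the other 3 saline arrays on the first. Differences within the second day are therefore given as well, with 3 arrays a side. The labelled tissue was checked with its markers: smooth muscle Myh11 read 5.06, 5.16 and 3.84 in the dissected aortas, and 3.83 to 5.19 (median 4.89) in saline aortas. Elastin (Eln) was measured above background on all 9 arrays too.

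Of the 18671 genes, 6819 (36.5%) differed between dissected and saline aortas. Of these, 3526 (18.9% of those tested) were higher in dissected aortas and 3293 (17.6%) were lower. At least a 2-fold difference was reached by 1392 of the higher and 1387 of the lower genes, and the median difference over all genes was -0.04. When arrays were centred on their medians in place of the intensity-dependent loess correction, the split became 872 higher and 5439 lower, around a median of -0.36. Scaling the arrays to an equal spread gave 2081 calls. Within the second scan day 5742 genes were called, 3079 higher and 2663 lower. The shares of 18.9% and 17.6% are the background against which the gene lists below are read.

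**Figure D1:**
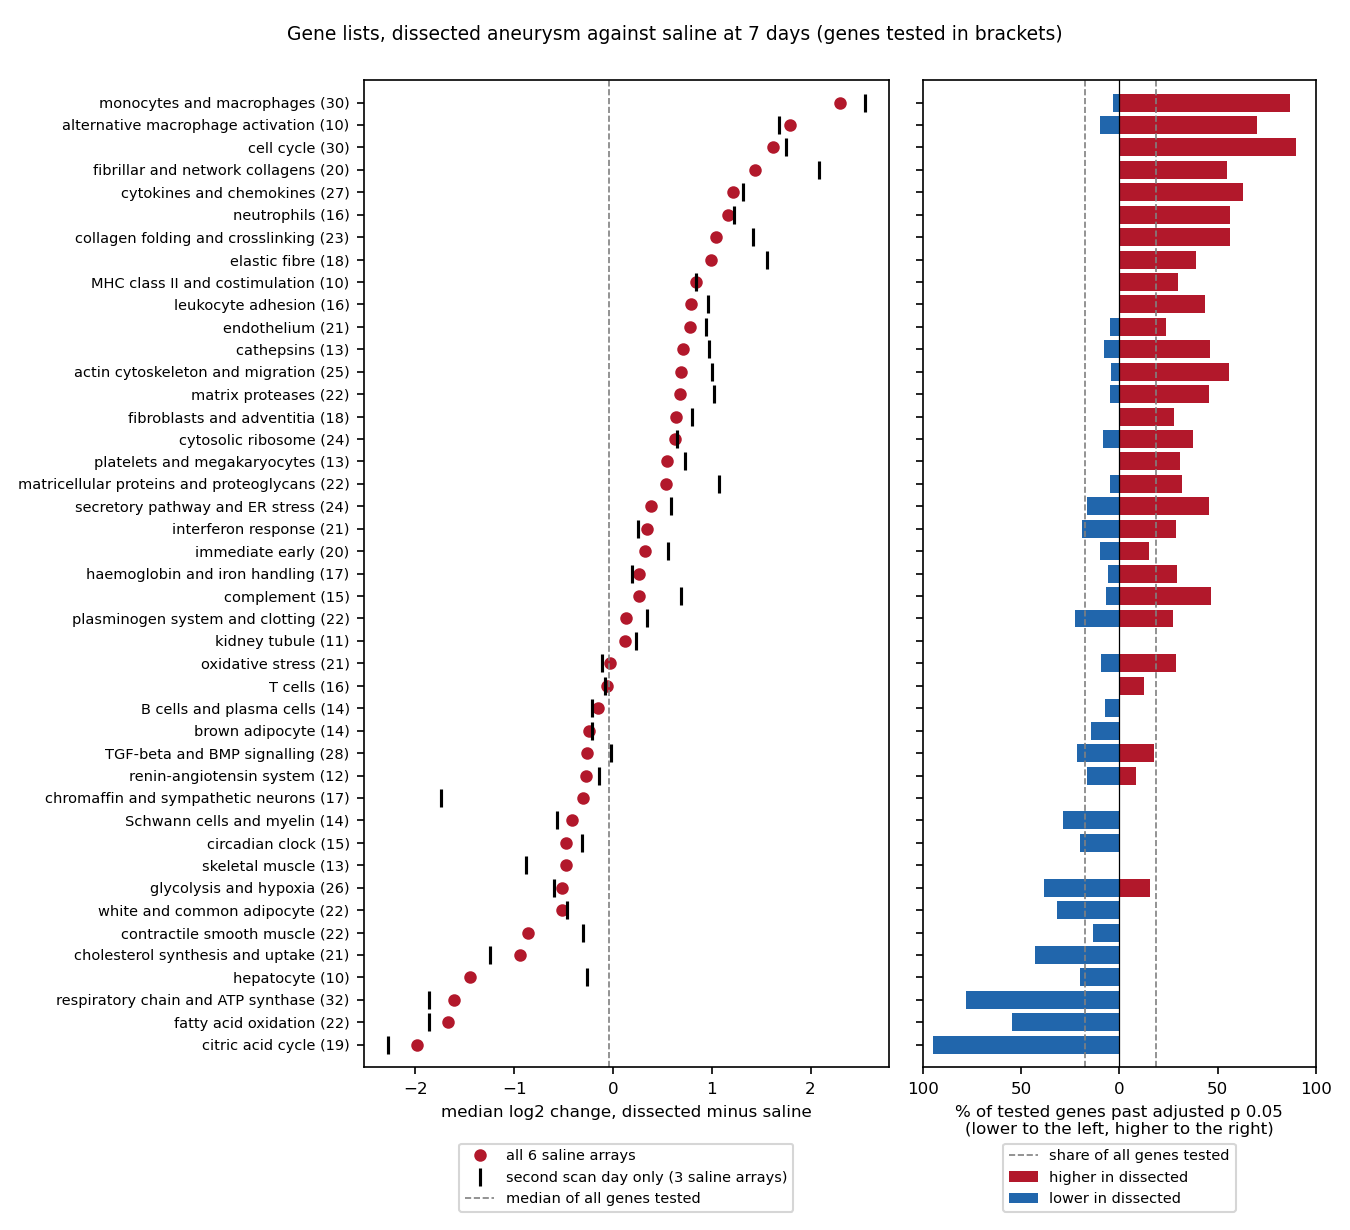
Gene lists in dissected against saline aortas at 7 days, with the number of genes tested in brackets. Left, the median log2 difference of each list against all 6 saline arrays (points) and against the 3 of the second scan day (ticks). Right, the share of each list called lower (left of 0) or higher (right of 0), with dashed lines at the shares of all genes. Macrophage genes stand at the top with a median of 2.30 and citric acid cycle genes at the bottom with -1.98.

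The largest rises belonged to an inhibitor of matrix proteases and to genes of macrophages and activated fibroblasts, with the platelet gene Pf4 among them. The 12 genes named here are the largest of those that were called, named by a symbol and without overlap between the groups, and 17.2% of all genes were higher without overlap, whether or not they met the other criteria. Timp1, which encodes a secreted inhibitor of metalloproteinases, read 3.41, 3.05 and 3.07 in dissected aortas, against -2.74 to -0.78 (median -1.97) in saline aortas. The 3 dissected arrays lay close together and far above all saline arrays, with a difference of 5.07 (SE 0.56, adjusted p = 6.33e-08). Trem2, a lipid-sensing receptor of macrophages, read 3.03, 2.12 and 2.70 in dissected aortas and -2.73 to -1.99 (median -2.38) in saline aortas. The groups were again far apart, and the difference was 4.99 (SE 0.47, adjusted p = 6.01e-09).

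Lrrc15, a membrane protein of activated fibroblasts, read 5.10, 4.82 and 4.42 in dissected aortas, against -0.02 to 0.69 (median 0.11) in saline aortas. The difference was 4.60 (SE 0.49, adjusted p = 4.35e-08), and no dissected array came near a saline one. Pf4, which encodes platelet factor 4, read 3.05, 3.35 and 3.00 in dissected aortas and -2.07 to -0.51 (median -1.10) in saline aortas. Hmox1, which encodes the haem-degrading enzyme haem oxygenase 1, read 2.20, 2.59 and 2.06 in dissected aortas, against -2.47 to -1.76 (median -1.92) in saline aortas. Neither gene's groups overlapped, and the differences were 4.30 (SE 0.50, adjusted p = 1.32e-07) for Pf4 and 4.29 (SE 0.60, adjusted p = 2.05e-06) for Hmox1. The other 7 rises ran from 3.98 for Spp1, the secreted matrix protein osteopontin, to 4.50 for Cd300lf, an inhibitory receptor of myeloid cells. Between them stood Mefv (pyrin, 4.38), Cthrc1 (a secreted protein of activated fibroblasts, 4.20), the myeloid lectin receptor Clec4d (4.15), macrophage Ms4a7 (4.07) and the myeloid kinase Fgr (4.01).

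**Figure D2:**
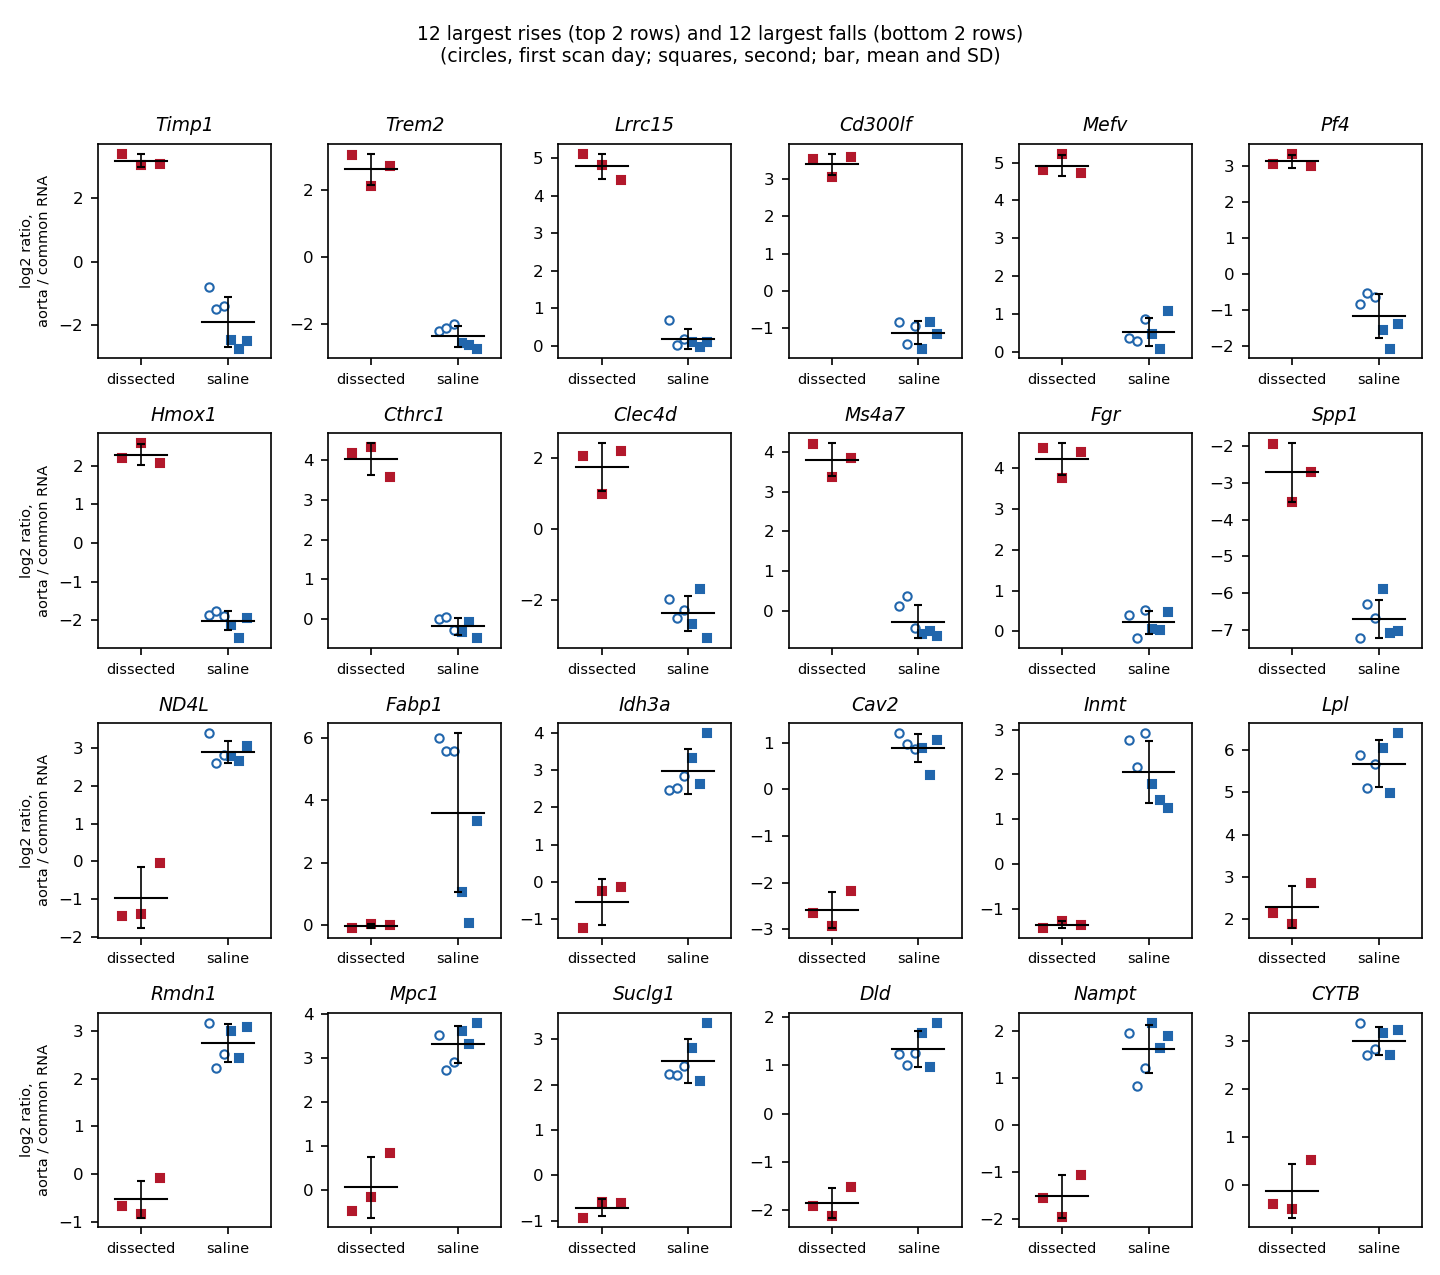
Log2 ratio of aorta to common reference RNA on each array for the 12 largest rises (upper rows) and 12 largest falls (lower rows), dissected left and saline right. Circles mark the first scan day and squares the second, and bars give mean and SD. For Timp1 the dissected arrays sit at 3.05 to 3.41 and all saline arrays below 0, while for Fabp1 the saline arrays spread from 0.09 to 5.99.

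Members that moved together had their promoters read for short motifs, since 10 of the 12 rises have an entry among RefSeq promoters (build GRCm38.p6, the 250 bases before the annotated start). Letters were searched on either strand. For AP-1 they were TGANTCA, present in 6.75% of all 32851 promoters, with any base at N. The AP-1 consensus has only C or G there, so these letters are wider than the consensus. For PU.1, a factor of myeloid cells, they were GAGGAAGT (2.44%), and for SP1 GGGCGG (32.7%). The other motifs searched were TGACNNNGC (antioxidant response, 10.2%), TCAAGGTCA (ERR, 0.387%) and the palindromic motif of NRF1 (0.782%). AP-1 and antioxidant response letters can share their first bases. Among the 10 genes with an entry, the AP-1 letters stood in 3: Lrrc15 (TGACTCA), Ms4a7 (TGATTCA) and Trem2 (TGAATCA). Of these only Lrrc15 holds the consensus. The PU.1 letters stood in 2 (Pf4 and Spp1), the SP1 letters in 2 (Lrrc15 and Timp1), and the other motifs in 0. Hmox1 and Cthrc1 have no entry. A gene counts if any of its starts holds the letters, while the percentages above are per promoter. The following promoters are shown because they hold the AP-1 or PU.1 letters beside 4 of the largest rises, with those letters in capitals, 5′ to 3′ on the strand of the gene. They lie at chr17:48346151-48346400 on the plus strand (Trem2), chr16:30283255-30283504 on the minus strand (Lrrc15), chr5:90772185-90772434 on the plus strand (Pf4) and chr5:104434861-104435110 on the plus strand (the upstream of 2 starts of Spp1).
Trem2: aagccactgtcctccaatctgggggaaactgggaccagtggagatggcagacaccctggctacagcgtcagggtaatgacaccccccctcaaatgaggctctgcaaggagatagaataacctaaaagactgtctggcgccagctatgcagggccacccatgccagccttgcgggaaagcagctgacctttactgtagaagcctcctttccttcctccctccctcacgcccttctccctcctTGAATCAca
Lrrc15: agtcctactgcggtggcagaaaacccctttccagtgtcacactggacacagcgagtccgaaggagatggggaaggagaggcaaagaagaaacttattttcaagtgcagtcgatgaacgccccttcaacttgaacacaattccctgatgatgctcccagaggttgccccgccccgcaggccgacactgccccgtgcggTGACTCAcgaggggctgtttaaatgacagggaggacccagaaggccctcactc
Pf4: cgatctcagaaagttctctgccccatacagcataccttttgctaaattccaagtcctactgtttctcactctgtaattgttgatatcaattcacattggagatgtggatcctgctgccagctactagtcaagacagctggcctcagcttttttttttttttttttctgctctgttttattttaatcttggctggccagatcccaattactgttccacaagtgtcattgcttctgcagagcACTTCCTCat
Spp1: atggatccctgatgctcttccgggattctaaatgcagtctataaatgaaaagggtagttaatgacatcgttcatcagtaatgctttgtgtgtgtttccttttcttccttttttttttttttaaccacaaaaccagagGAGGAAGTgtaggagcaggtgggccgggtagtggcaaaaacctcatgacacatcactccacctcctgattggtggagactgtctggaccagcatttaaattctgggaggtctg
The AP-1 letters begin at position -9 in Trem2 and -53 in Lrrc15, counted back from the start, and those of PU.1 at -10 in Pf4 (as the reverse complement) and -113 in Spp1. The AP-1 letters were not confined to rises: 7 of the 12 largest falls have a promoter entry, and these letters stood in 1 of them, Cav2, at position -92. In the same 7 genes the SP1 letters stood in 3 (Cav2, Mpc1 and Nampt) and the antioxidant response letters in 2 (Fabp1 and Mpc1). The other motifs stood in 0. The Cav2 promoter, at chr6:17280935-17281184 on the plus strand, is shown to compare its AP-1 letters.
Cav2: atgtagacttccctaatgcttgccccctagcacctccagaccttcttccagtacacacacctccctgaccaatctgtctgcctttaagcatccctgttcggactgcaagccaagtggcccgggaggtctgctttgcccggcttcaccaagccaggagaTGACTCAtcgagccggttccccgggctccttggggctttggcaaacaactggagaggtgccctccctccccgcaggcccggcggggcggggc
Whole lists were counted in the same way, by gene with a promoter entry. In lists that mostly rose, AP-1 letters were in 4 of 24 macrophage genes, 1 of 15 collagens and 0 of 25 cell division genes. In lists that fell they were in 3 of 23 genes of the respiratory chain and 0 of 17 of the citric acid cycle. PU.1 letters were in 1 of 24 macrophage and 1 of 23 respiratory chain genes and in 0 of the other 3 lists. SP1 letters were in 19 of 25 cell division, 10 of 15 collagen and 6 of 24 macrophage genes. In the lists that fell they were in 11 of 17 citric acid cycle and 8 of 23 respiratory chain genes. For the antioxidant response these counts were 5, 2, 1, 3 and 3, in the same order. NRF1 letters were in 1 of 24 macrophage genes and otherwise in 0, and ERR letters in 0. A match of letters describes these windows only.

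Macrophage genes rose broadly. Of 30 monocyte and macrophage genes tested, 26 rose and 1 fell, with a median difference of 2.30 against -0.04 over all genes. Their mean level was 2.68, 1.96 and 2.57 on the dissected arrays and -0.36 to 0.46 (median 0.21) on the saline arrays, without overlap. Cd68, an endosomal protein of macrophages, read 1.31, -0.05 and 0.48 in dissected aortas and -2.35 to -1.49 (median -1.72) in saline aortas, a difference of 2.41 (SE 0.36, adjusted p = 4.77e-06). Adgre1, an adhesion receptor used as a surface marker of macrophages, read 2.12, 1.18 and 2.02 in dissected aortas, against -1.08 to -0.20 (median -0.53) in saline aortas, a difference of 2.38 (SE 0.30, adjusted p = 3.91e-07). For both genes the second dissected aorta had the lowest level of its group and still lay above every saline aorta. The Fc receptor gene Fcgr1 rose by 3.77, and the monocyte chemokine receptor gene Ccr2 by 2.84. Cd36, a scavenger receptor that fat cells and endothelium also express, fell by 1.99. Cx3cr1 (0.50), Marco (0.99) and Clec7a (1.39) did not pass the test. Within the second scan day 24 rose and 1 fell, and after scaling to equal spread 15 rose and 0 fell.

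Genes of alternative macrophage activation, the state linked to repair, mostly rose. Of 10 tested, 7 rose and 1 fell (median 1.80). Arg1, which encodes arginase 1, read 4.53, 3.39 and 5.18 in dissected aortas and 0.33 to 0.91 (median 0.46) in saline aortas. The groups did not overlap, and the difference was 3.81 (SE 0.97, adjusted p = 0.00243). Chil3 rose by 3.24 and Cd163, the scavenger receptor for haemoglobin, by 1.55. Retnla, an alternative activation gene that fat tissue also expresses, read 0.54, 3.38 and 1.00 in dissected aortas, against 1.98 to 4.38 (median 4.27) in saline aortas. Its groups overlapped, and its fall of 2.20 (SE 0.56, adjusted p = 0.00265) was not called within the second scan day (adjusted p = 0.0631) or without the first dissected array (adjusted p = 0.0515). It turned to differences of 0.02 to 0.39 with the scanner's processed signals or the deposited ratios. Equal scaling gave 2 rises and 0 falls in the list.

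Chemokines and interleukin genes also rose, without a fall in the list. Of 27 tested, 17 rose and 0 fell (median 1.22). Ccl7, which draws monocytes, read 0.94, -0.00 and 1.80 in dissected aortas and -3.28 to -1.91 (median -2.33) in saline aortas, a difference of 3.46 (SE 0.66, adjusted p = 0.000121). Il1b, the inflammatory cytokine interleukin 1 beta, read 3.64, 2.41 and 3.27 in dissected aortas, against -0.11 to 0.46 (median 0.02) in saline aortas, a difference of 3.02 (SE 0.50, adjusted p = 2.05e-05). Both were well separated on every array. Ccl8 rose by 3.01, Ccl9 by 2.98, Ccl12 by 2.75 and Il33, an alarm signal of stromal cells, by 2.41. Ccl2, the main monocyte chemokine, did not overlap between the groups but missed the threshold at 1.07 (SE 0.46, adjusted p = 0.0703), and Cxcl1 (0.76) and Tnf (0.30) did not pass either. Il6 was above background in 3 of 3 dissected and 0 of 6 saline aortas, which bounds it at 2.25-fold or more (adjusted p = 0.025). That call was lost within the second scan day (adjusted p = 0.154) and without the first dissected (0.0728), the third dissected (0.115) or the fourth saline array (0.0522). Median centring gave 8 rises and equal scaling 9.

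Neutrophil genes rose in 9 of 16 and fell in 0 (median 1.17). Of the 16, 12 were well above background on all 3 dissected arrays, but only 2 on all 6 saline arrays. For the others some saline signals were dim. Il1r2, a decoy receptor for interleukin 1 that neutrophils and monocytes carry, read 4.36, 2.82 and 4.76 in dissected aortas, against -0.38 to 0.34 (median 0.26) in saline aortas. Csf3r, the receptor for granulocyte colony-stimulating factor, read 3.93, 2.29 and 3.25 in dissected aortas and 0.08 to 0.68 (median 0.27) in saline aortas. Neither gene overlapped, and they rose by 3.83 (SE 0.43, adjusted p = 8.1e-08) and 2.85 (SE 0.46, adjusted p = 1.45e-05). The granule genes Ngp (-0.30), Ltf (-0.03) and Camp (0.10), made in maturing neutrophils, did not pass. S100a9 did not overlap between the groups and missed the threshold at 2.12 (SE 0.87, adjusted p = 0.0553).

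Platelet genes rose in part, and red cell genes were not called. Of 13 platelet and megakaryocyte genes, 4 rose and 0 fell (median 0.55): Pf4, Gp9, Treml1 and Gp6. Gp9, a subunit of the von Willebrand factor receptor, read 4.02, 2.34 and 2.96 in dissected aortas, against -0.23 to 2.20 (median 0.78) in saline aortas, and rose by 2.32 (SE 0.65, adjusted p = 0.0057). The groups lay close at their edges. Without the first dissected array only 2 of the 4 were called, with Gp9 at adjusted p = 0.0637 and Gp6 at adjusted p = 0.0953. The defining integrin Itga2b differed by 0.05 (adjusted p = 0.914), and which cells held the Pf4 RNA was not tested. Of 6 erythroid genes 0 were called, and Hba-a1, an alpha globin gene, read 4.68, 5.89 and 4.69 in dissected aortas and 3.39 to 5.01 (median 4.39) in saline aortas. Those groups overlapped (difference 0.78, SE 0.40, adjusted p = 0.134).

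Haem and iron genes did not move as a block. Of 17 tested, 5 rose and 1 fell, and their median of 0.27 became -0.43 with median centring, which gave 2 rises and 5 falls. Equal scaling gave 2 rises and 0 falls. Beside Hmox1, the rises were Cd163, the phagosomal metal transporter Slc11a1 (1.40), the scavenger receptor Lrp1 (0.99, adjusted p = 0.0546 without the second dissected array) and the ferritin light chain Ftl1 (0.67). Cd163 read 5.48, 5.20 and 5.14 in dissected aortas, against 2.45 to 4.34 (median 3.89) in saline aortas, without overlap (SE 0.37, adjusted p = 0.0014). The transferrin receptor gene Tfrc fell by 0.96. The ferritin heavy chain Fth1 (-0.28) and the iron exporter Slc40a1 (1.25) did not pass.

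Lymphocyte genes were seldom called. Of 16 T cell genes 2 rose, Thy1, which fibroblasts also express, and Cd8b1, and of 14 B cell and plasma cell genes only Xbp1 fell. Leaving out the second dissected array ended both T cell calls (adjusted p = 0.0818 for Thy1 and 0.0576 for Cd8b1), and Cd8b1 turned to -0.22 with median centring. Cd3e (0.26) and Cd4 (-0.03) did not pass. Xbp1, a transcription factor of secretory cells, read -1.96, -2.39 and -1.57 in dissected aortas and -1.12 to -0.92 (mean -1.01) in saline aortas, a fall of 0.96 (SE 0.20, adjusted p = 0.000307) with no overlap.

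Complement genes rose in 7 of 15 and fell in 1, with a median of 0.26 that became -0.29 under median centring. Cfp, the complement activator properdin, rose by 3.27, and C1qa and C1qb, chains of the initiator C1q that macrophages make, by 2.23 and 2.81. Of 21 interferon response genes 6 rose and 4 fell, with a median of 0.34 (-0.34 under median centring), and without the second dissected array 0 fell. The antiviral gene Oas2 rose by 2.49, while Ifih1, a sensor of viral RNA, fell by 0.84. Leukocyte adhesion genes rose in 7 of 16, with 0 lower. The P-selectin ligand gene Selplg was 2.41 higher and Icam1 1.22 higher, whereas the endothelial adhesion genes Sele (-0.04) and Vcam1 (0.75) did not pass. With median centring the adhesion list gave 3 rises and 2 falls (median 0.15, against 0.79 with loess). Equal scaling gave 2 rises in the complement list and 4 in each of the interferon and adhesion lists.

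Cell division genes rose almost without exception. Of 30 tested, 27 rose and 0 fell (median 1.62), and Pcna (0.15), Cdk1 (0.37) and Kif11 (0.58) did not pass. Mki67, the proliferation antigen Ki-67, read -0.96, -1.91 and -1.19 in dissected aortas, against -5.28 to -4.08 (median -4.58) in saline aortas, a difference of 3.23 (SE 0.41, adjusted p = 4.15e-07). Birc5, which encodes survivin, read -0.36, -0.48 and -0.65 in dissected aortas and -4.41 to -3.63 (median -3.88) in saline aortas, a difference of 3.44 (SE 0.31, adjusted p = 3.21e-09). All 3 dissected aortas lay above all saline aortas for both genes. The kinetochore motor Cenpe rose by 3.06 and the mitotic activator Cdc20 by 2.76. Within the second scan day 27 again rose. Median centring gave 15 rises and equal scaling 0, with medians of 0.86 and 1.99.

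Collagens and their processing enzymes rose, while several other matrix genes did not. Of 20 collagen genes 11 rose and 0 fell (median 1.44), and their mean level was 2.17, 2.18 and 1.16 in dissected aortas, against -0.58 to 1.15 (median 0.35) in saline aortas. The saline arrays of the first scan day read 0.75 to 1.15 and those of the second -0.58 to -0.06, so the third dissected aorta lay just above the highest saline array. Within the second day 14 rose, with a median of 2.09. Col1a1, a chain of fibrillar type I collagen, read 3.74, 3.75 and 2.43 in dissected aortas and -1.64 to 1.39 (median -0.27) in saline aortas, a difference of 3.48 (SE 0.71, adjusted p = 0.000275). Col8a1, a network collagen of the injured vessel wall, read 1.93, 2.27 and 0.55 in dissected aortas, against -3.21 to -0.86 (median -1.86) in saline aortas, a difference of 3.51 (SE 0.57, adjusted p = 1.54e-05). The third dissected aorta was the lowest of its group for both and lay above every saline aorta. Col3a1 rose by 1.98, at adjusted p = 0.012, and missed the threshold without the first dissected array (1.75, adjusted p = 0.0705). The basement membrane chains Col4a1 (-0.39) and Col4a2 (-0.73) did not pass. Equal scaling gave 1 rise.

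Of 23 collagen folding and crosslinking genes 13 rose and 0 fell (median 1.05). Serpinh1, the collagen chaperone, read 4.16, 3.65 and 3.80 in dissected aortas, against -0.45 to 1.77 (median 0.33) in saline aortas, without overlap, and rose by 3.23 (SE 0.53, adjusted p = 2.04e-05). The prolyl isomerase Fkbp10 rose by 2.97, the crosslinking enzyme Loxl2 by 2.81 and the procollagen protease Bmp1 by 2.15. Lox, which crosslinks collagen and elastin, read -0.84, -1.71 and -1.36 in dissected aortas and -2.81 to -1.58 (median -2.38) in saline aortas. Its groups overlapped, and 0.94 (SE 0.47, adjusted p = 0.123) did not pass over all saline arrays, but 1.31 did within the second scan day (adjusted p = 0.0323). Median centring gave 6 rises and 2 falls, and equal scaling 4 rises.

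Elastic fibre genes rose in 7 of 18 and fell in 0 (median 1.00, and 1.56 with 10 rises within the second scan day). Equal scaling gave 2 rises (median 0.53), and median centring gave 5 rises and 1 fall (median 0.27). Efemp2, a fibulin needed for elastic fibre assembly, read 1.17, 1.20 and 1.35 in dissected aortas, against -2.27 to -0.66 (median -1.50) in saline aortas, without overlap, and rose by 2.73 (SE 0.46, adjusted p = 2.6e-05). The fibrillin gene Fbn2 was above background in 3 of 3 dissected and 0 of 6 saline aortas and was at least 4.01-fold higher in dissected aortas (adjusted p = 1.3e-05). Fbn1, the main fibrillin of the adult aorta, read 0.85, 0.48 and 0.01 in dissected aortas and -1.02 to 1.55 (median 0.00) in saline aortas, which overlapped (difference 0.29, SE 0.52, adjusted p = 0.698). Elastin read 4.55, 4.29 and 3.87 in dissected aortas, against 1.60 to 3.84 (median 3.25) in saline aortas. Those groups did not overlap, and 1.14 (SE 0.50, adjusted p = 0.0761) missed the threshold that 1.54 passed within the second scan day (adjusted p = 0.0303). Fbln5, another fibulin, was not well above background on any of the 9 arrays.

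Matricellular proteins and proteoglycans were mixed, with 7 of 22 higher and 1 lower, and a median of 0.53 that became -0.08 with median centring. Besides Spp1, cartilage oligomeric matrix protein (Comp) rose by 2.90, aggrecan (Acan) by 2.56, Ccn4 by 2.35 and versican (Vcan) by 2.00. Prelp, a small proteoglycan, fell by 1.56. Postn (0.19), Thbs1 (0.75), Fn1 (-0.06) and Ccn2 (-0.59), all matrix genes of wound repair, did not pass, and neither did Tnc (1.03, adjusted p = 0.0539, but 1.61 and 0.0063 within the second scan day). Fibroblast and adventitial markers rose in 5 of 18, with 0 lower and a median of 0.64, and in 3 without the first dissected array. Equal scaling gave 3 rises in the matricellular list and 2 in the fibroblast list. S100a4 was 2.33 higher, while the resident fibroblast genes Pdgfra (0.41), Dpt (-0.12) and Pi16 (0.75) did not pass.

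Matrix protease genes rose in 10 of 22 and fell in 1, with a median of 0.68 (-0.02 with median centring). Mmp14, a membrane-bound metalloproteinase, read 2.16, 1.85 and 1.13 in dissected aortas and -2.23 to -1.48 (median -1.98) in saline aortas, a difference of 3.63 (SE 0.38, adjusted p = 3.12e-08). Mmp9, a gelatinase of neutrophils and macrophages, read 1.10, 0.89 and 0.34 in dissected aortas, against -2.04 to -0.93 (median -1.24) in saline aortas, a difference of 2.18 (SE 0.38, adjusted p = 3.95e-05). No array overlapped for either gene. Adam8, a myeloid metalloproteinase, rose by 3.73 and the aggrecanase Adamts4 by 2.03, which rests on 2 of the 3 dissected arrays because a flagged spot was left out. Mmp2, the gelatinase of stromal cells, read 0.55, 0.01 and -0.59 in dissected aortas and -1.36 to -0.08 (median -0.51) in saline aortas, which overlapped (0.64, SE 0.39, adjusted p = 0.204), though 1.18 passed within the second scan day (adjusted p = 0.0396). Mmp3 (0.28) did not pass, Adamts5 fell by 1.01, and Mmp12 and Mmp13 were not well above background on any of the 9 arrays. Equal scaling and median centring each gave 5 rises.

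Cathepsins, lysosomal proteases, rose in 6 of 13 and fell in 1 (median 0.71), and equal scaling left 0 of these calls. Ctss, an elastin-cutting cathepsin of macrophages, read 2.83, 1.10 and 2.81 in dissected aortas and -1.39 to -0.38 (median -0.85) in saline aortas, a difference of 3.16 (SE 0.53, adjusted p = 2.79e-05) without overlap. Ctsd rose by 2.07, while Ctsk (0.32) and Ctsl (0.71) did not pass.

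Inhibitors of proteases moved both ways. Of 9 tested 3 rose and 1 fell, with a median of -0.10 that turned to 0.37 within the second scan day. Wfdc17 rose by 3.56 and Serpina3n by 1.48 beside Timp1. Timp3, a metalloproteinase inhibitor bound to the matrix, read -0.84, -0.29 and -1.71 in dissected aortas, against 0.36 to 2.25 (median 1.17) in saline aortas. The groups did not overlap, and Timp3 fell by 2.17 (SE 0.46, adjusted p = 0.000368). The fall was 1.69 within the second scan day (adjusted p = 0.00236). Timp2 (-0.14) and Timp4 (-0.99) did not pass.

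Plasminogen and clotting genes split into 6 rises and 5 falls of 22, with a median of 0.14 that became -0.41 under median centring. The urokinase receptor Plaur rose by 1.33 and urokinase itself (Plau) by 0.99, and F13a1, a clotting factor chain that macrophages make, by 2.26. F3, tissue factor, read -0.72, -1.05 and -0.93 in dissected aortas, against 0.28 to 2.28 (median 1.05) in saline aortas, and fell by 2.02 (SE 0.56, adjusted p = 0.00532). Within the second scan day its difference was -1.31 (adjusted p = 0.0559) and 0 of the 22 genes fell. The largest falls of the list were those of the fibrinogen chains Fgg (-4.14, adjusted p = 0.0294) and Fgb (-3.79, adjusted p = 0.0225), which hepatocytes make. They moved with the hepatocyte list described below, whose mean level differed between the saline arrays of the 2 scan days (3.14 to 3.28 on the first and 0.57 to 1.97 on the second). The part of liver tissue in these falls was not tested. Equal scaling gave 2 rises and 0 falls. Leaving out the first dissected array gave 1 fall.

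TGF-beta and BMP pathway genes, which govern matrix synthesis in the aorta, moved in both directions. Of 28 tested 5 rose and 6 fell, near the shares of all genes (18.9% and 17.6%). The median was -0.26, or -0.02 within the second scan day, and median centring gave 1 rise and 15 falls. Tgfb1, the main ligand, read 1.35, 1.15 and 0.87 in dissected aortas and -0.64 to -0.31 (median -0.45) in saline aortas, a rise of 1.56 (SE 0.16, adjusted p = 1.82e-08) without overlap. Bmp6 read 0.74, 0.47 and 0.41 in dissected aortas, against 1.45 to 3.81 (median 3.22) in saline aortas, a fall of 2.38 (SE 0.47, adjusted p = 0.000168) without overlap. Tgfb2 (0.78) and the receptor Tgfbr2 (-0.56) did not pass. Without the first dissected array 2 rose.

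Contractile smooth muscle genes were not generally called. Of 22 tested 0 rose and 3 fell (Tpm1, Mylk and Des), with a median of -0.86 that was -0.30 within the second scan day, when 1 rose and 1 fell. The list's mean level was 1.81, 2.06 and 1.13 in dissected aortas, against 2.48 to 3.16 in saline aortas of the first scan day and 1.26 to 2.27 in those of the second. The dissected aortas thus lay below the first and within or near the second. Acta2, smooth muscle actin, read 1.83, 1.63 and 0.82 in dissected aortas and 1.07 to 3.88 (median 2.31) in saline aortas, overlapping (-1.05, SE 0.77, adjusted p = 0.303). Its difference was -0.07 within the second scan day. Myh11 differed by -0.01 (SE 0.44, adjusted p = 0.985), and by 0.92 to 1.06 with the scanner's processed signals or the deposited ratios, where it passed. Tagln (-0.77), Cnn1 (-0.26) and Smtn (0.56) did not pass over all saline arrays. The call on Tpm1, a tropomyosin, was -1.77 (SE 0.53, adjusted p = 0.00959) and held within the second scan day (-0.94, adjusted p = 0.0369). Those on Mylk and Des were lost there (adjusted p = 0.131 and 0.472). Mylk was lost also without the third dissected array (0.0838), and Des without any 1 dissected array (0.0891 to 0.138) or any 1 of the first 3 saline arrays (0.0553 to 0.113). Without the second dissected array 1 of the 3 was called. With the replicate number as a block 6 fell and 0 rose, with median centring 7 and 0, with the deposited ratios 6 and 2, and after equal scaling 0 and 0.

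Endothelial genes rose in 5 of 21, near the 18.9% of all genes, and fell in 1. Their median of 0.78 was -0.04 after equal scaling, and without the first dissected array 2 rose. The list's mean level was 3.62 to 3.82 on the dissected arrays, against 2.00 on the fifth saline array, which stood apart, and 3.06 to 3.68 on the other saline arrays. Without the fifth saline array 3 rose and 2 fell (median 0.47). Median centring gave 1 rise and 3 falls (median 0.05), and the deposited ratios 12 rises and 0 falls. Ecscr, an endothelial surface protein, was 1.49 higher. Pecam1 read 1.72, 1.19 and 1.36 in dissected aortas and 1.02 to 2.72 (median 2.15) in saline aortas, which overlapped (-0.67, adjusted p = 0.0649). With the replicate block it fell (-0.82, adjusted p = 0.00684). Cdh5 (1.25), Vwf (0.17) and Nos3 (0.19) did not pass. Cav2, a caveolin of endothelium, smooth muscle and fat cells, read -2.65, -2.94 and -2.17 in dissected aortas, against 0.32 to 1.22 (median 0.93) in saline aortas. It stood among the 12 largest falls at -3.48 (SE 0.37, adjusted p = 3.47e-08), with a wide gap between the groups.

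Genes of mitochondrial energy metabolism fell. Of the 12 largest falls 6 were mitochondrial (ND4L, CYTB, Idh3a, Suclg1, Dld and Mpc1). The share of mitochondrial genes among all genes tested was not counted. The criteria were those used for the rises, and 16.3% of all genes were lower without overlap. ND4L and CYTB, encoded by mitochondrial DNA, fell by 3.85 and 3.13. Of 19 citric acid cycle genes 0 rose and 18 fell (median -1.98), and Dlst (-0.83) did not pass. Their mean level was -0.38, -0.10 and 0.22 in dissected aortas and 1.63 to 2.65 (median 1.89) in saline aortas, without overlap. Idh3a, a subunit of isocitrate dehydrogenase, read -1.23, -0.23 and -0.13 in dissected aortas, against 2.48 to 3.99 (median 2.73) in saline aortas, a fall of 3.49 (SE 0.72, adjusted p = 0.00031). Suclg1, of succinyl-CoA ligase, read -0.93, -0.59 and -0.61 in dissected aortas and 2.09 to 3.36 (median 2.32) in saline aortas, a fall of 3.23 (SE 0.56, adjusted p = 4.22e-05). Both genes were lower on every dissected array. Dld, shared by several dehydrogenase complexes, fell by 3.18, and Mpc1, which carries pyruvate into mitochondria, by 3.26. Within the second scan day 17 of the 19 fell, with a median of -2.28.

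Respiratory chain and ATP synthase genes fell in 25 of 32 and rose in 0 (median -1.61, or -1.86 with 25 falls within the second scan day). Sdhb, an iron-sulfur subunit of succinate dehydrogenase, fell by 2.96, Uqcrfs1 by 2.80 and cytochrome c (Cycs) by 2.76. Cox4i1 (-0.81) and Cox5b (-0.95) did not pass. Fatty acid oxidation genes fell in 12 of 22 and rose in 0 (median -1.67), with Acsl1, which activates fatty acids, at -2.69 and the medium-chain dehydrogenase Acadm at -2.27. The carnitine transferases Cpt1a (-0.14) and Cpt1b (-0.22) did not pass. Without the first dissected array 15 respiratory chain genes fell, and equal scaling gave 1 call in each of the citric acid cycle and respiratory chain lists and 0 in the fatty acid list, with medians of -2.11, -1.75 and -2.09.

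Glycolysis and hypoxia genes fell in 10 of 26 and rose in 4 (median -0.51). Gapdh read -2.01, -1.76 and -2.17 in dissected aortas and -1.30 to -0.45 (median -1.08) in saline aortas, a fall of 0.99 (SE 0.22, adjusted p = 0.000682) without overlap. Bnip3, a mitophagy gene, was 2.59 lower. The lactate exporter Slc16a3 read 0.63, 0.86 and 0.64 in dissected aortas, against -2.30 to -1.45 (median -1.96) in saline aortas, and rose by 2.62 (SE 0.31, adjusted p = 1.56e-07), again without overlap. Hk3, the hexokinase of myeloid cells, rose by 1.94, while Vegfa (-0.53) and Hk2 (-1.12) did not pass. When the first dissected array was left out, 4 genes fell, and after equal scaling 2 genes rose and 0 fell.

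Fat cell genes fell in part. Of 22 white and common fat cell genes 0 rose and 7 fell (median -0.51). Lpl, lipoprotein lipase, read 2.15, 1.87 and 2.85 in dissected aortas and 4.99 to 6.41 (median 5.77) in saline aortas, a fall of 3.39 (SE 0.51, adjusted p = 5.95e-06) without overlap. The fatty acid elongase Elovl6 fell by 2.58 and the acyltransferase Agpat2 by 2.43. Adipoq, adiponectin, read 6.45, 6.59 and 6.31 in dissected aortas, against 4.98 to 6.38 (median 5.83) in saline aortas, overlapping (0.75, SE 0.38, adjusted p = 0.127). Plin1 (0.03) and the brown fat gene Ucp1 (0.08) did not pass, and of 14 brown fat genes 0 rose and 2 fell, Otop1 and Fabp3. Of 21 cholesterol synthesis and uptake genes 0 rose and 9 fell (median -0.94), with Fdft1 at -1.72 and Pmvk at -1.32. Without the first dissected array 4 fat cell and 3 cholesterol genes fell. Equal scaling gave 0 falls in both lists, and median centring gave 14 cholesterol falls.

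Among markers of neighbouring organs, those of hepatocytes differed between saline arrays and were low in the dissected ones. Of 10 hepatocyte genes 0 rose and 2 fell, Alb and Fgb, near the 17.6% of all genes. Albumin (Alb) read 0.03, -0.38 and 0.02 in dissected aortas, with 0 of 3 above background, and 0.065 to 4.88 (median 3.62) in saline aortas, with 5 of 6 above it. Its measured difference was -3.43 (SE 1.07, adjusted p = 0.0122), or -2.37 within the second scan day (adjusted p = 0.127), and its fold is not given because the dissected signals were not well above background. Without the first dissected array 1 of the 2 falls was called (Fgb at adjusted p = 0.0567, and 0.0661 and 0.0629 without the second and the third), and with the replicate block 5 of the 10 genes fell. The mean level of the list was 0.93, 0.65 and 0.74 in dissected aortas, against 3.14 to 3.28 in saline aortas of the first scan day and 0.57 to 1.97 in those of the second. Fabp1, a fatty acid binding protein of liver and gut, was likewise above background in 0 of 3 dissected and 6 of 6 saline aortas. On the mean over all saline arrays it was at least 10.1-fold lower (adjusted p = 0.046). Its saline arrays read 5.58 to 5.99 on the first scan day but 1.06, 0.09 and 3.34 on the second. Within the second day the measured difference of Fabp1 was only -1.51 (adjusted p = 0.369). Its call was lost on leaving out any array but the fourth or the fifth saline one, at adjusted p of 0.0575 to 0.113. Their part in the other falls was not tested. Chromaffin and sympathetic neuron genes were called in 0 of 17, and their mean level spread from 1.77 to 4.25 in dissected and from 0.76 to 4.67 in saline aortas. Kidney tubule (11), skeletal muscle (13) and pancreatic acinar genes (7) gave 0 calls, and of 8 adrenal cortex genes only Fdx1, a mitochondrial electron carrier, fell, by 1.49.

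**Figure D3:**
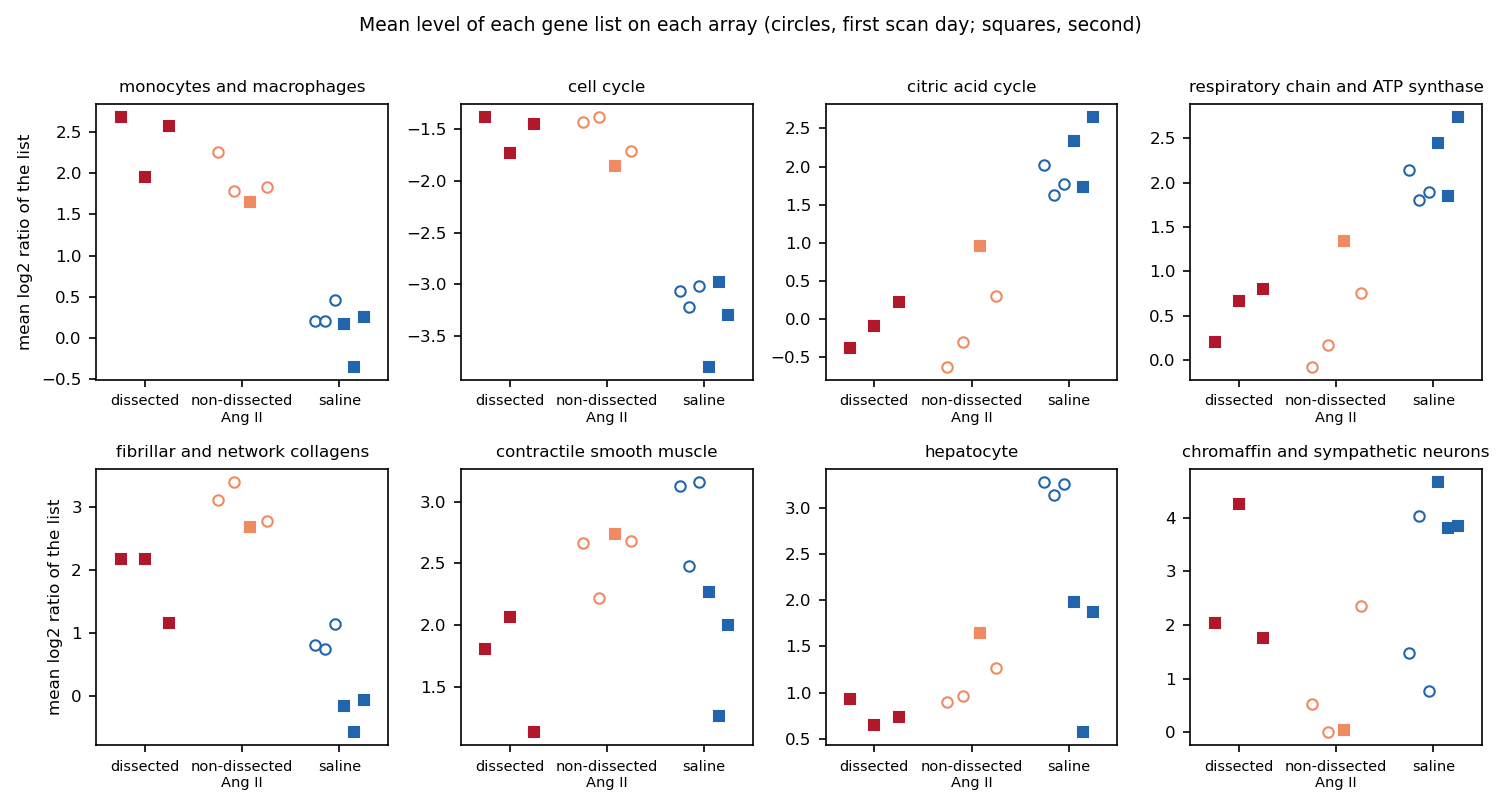
Mean log2 ratio of 8 gene lists on each array, for dissected, non-dissected Ang II and saline aortas at 7 days. Circles mark the first scan day and squares the second. Macrophage, cell cycle and citric acid cycle levels separate the dissected aortas, all scanned on the second day, from the saline aortas of either day. Contractile and hepatocyte levels differ between the saline arrays of the 2 days.

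Genes of secretion, motility and translation rose in part. Secretory pathway and ER stress genes rose in 11 of 24 and fell in 4 (median 0.39, or -0.25 with median centring), led by the disulfide isomerase Pdia3 (1.62), and without the second dissected array 2 fell. Actin and migration genes rose in 14 of 25 and fell in 1 (median 0.69), with Ckap4 at 3.05 and the leukocyte actin bundler Lcp1 at 2.22, and Actb, often taken as constant, was 1.44 higher (SE 0.39, adjusted p = 0.00443). Cytosolic ribosome genes rose in 9 of 24 and fell in 2 (median 0.63), though median centring gave 0 rises and 4 falls. Median centring gave 8 rises in the actin list. Equal scaling left 0 calls in each of these lists. Oxidative stress genes rose in 6 of 21 and fell in 2, with catalase (Cat) at -2.77, and median centring gave 6 rises and 5 falls. Nqo1 (-0.10), Gclm (-0.28) and Txnrd1 (-0.03), targets of the factor NRF2 as is Hmox1, did not pass.

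The receptor for Ang II was not called. Agtr1a read 1.36, 3.83 and 1.03 in dissected aortas and 1.27 to 5.52 (median 4.22) in saline aortas, which overlapped (-1.66, SE 0.86, adjusted p = 0.133), though -2.53 passed within the second scan day (adjusted p = 0.0422). Of 12 renin-angiotensin genes Anpep rose (1.91), and Mme and Atp6ap2 fell. Mme was not called without the second dissected array (adjusted p = 0.0518), nor Atp6ap2 without the first (0.0762) or the third (0.0826). Among 20 immediate early genes 3 rose and 2 fell, no more than the 18.9% and 17.6% of all genes. Their median was 0.33, or -0.31 with median centring. Junb rose by 1.86, and Fos (0.16) did not pass. Of 15 circadian clock genes 0 rose and 3 fell, near the 17.6% of all genes. Without the first or without the second dissected array 1 of the clock genes fell. Their mean level was -0.34 to -0.11 in dissected aortas, against 0.64 to 0.83 in saline aortas of the first scan day and -0.12 to 0.03 in those of the second. Within the second day 1 rose and 2 fell, and equal scaling gave 0 falls, while the replicate block gave 7 and median centring 9. Schwann cell genes fell in 4 of 14 and rose in 0, and 2 fell without the first dissected array. MHC class II and costimulation genes rose in 3 of 10 and fell in 0 (median 0.84), led by H2-DMb1 (1.92). That list gave 6 rises with the replicate block and 5 within the second scan day, but 2 without any 1 dissected array or the fourth saline array, 1 with median centring (median 0.23) and 0 after equal scaling (median 0.33).

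Set against non-dissected Ang II aortas, the dissected aortas differed at 1500 genes (8.03%), of which 571 (3.06%) were higher and 929 (4.98%) lower. Both comparisons use the same dissected arrays. Of the 4 non-dissected arrays 3 were scanned on the first day, so scan day and dissection are hard to tell apart: with scan day as a block 861 genes were called, and within the second day, with 1 non-dissected array, 8. Of the genes chosen for description, 35 differed, 21 higher and 14 lower in dissected aortas, and 11 of the 35 were called whichever of the 7 arrays was left out.

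Of the 30 genes of the monocyte and macrophage list 0 differed between dissected and non-dissected aortas, and likewise 0 of the citric acid cycle, respiratory chain and fatty acid oxidation lists, with medians of 0.44, -0.17, -0.05 and 0.04. Of 30 cell division genes 0 were higher and 1 was lower in dissected aortas. Against saline, the non-dissected aortas gave 26 rises and 1 fall in the macrophage list (median 1.87). Of the cell division genes 29 rose there (median 1.60). Falls came to 19 of 19 citric acid cycle, 31 of 32 respiratory chain and 20 of 22 fatty acid oxidation genes. Over all genes 14.5% rose and 12.6% fell in that comparison. A miss of the threshold does not show equal levels. Trem2 read 3.03, 2.12 and 2.70 in dissected aortas and 0.14 to 1.83 in non-dissected aortas, without overlap, but 1.54 (SE 0.50, adjusted p = 0.0539) missed it. Timp1 overlapped, with 2.51 to 3.62 in non-dissected aortas. Arg1, of the alternative activation list, was 3.33 higher in dissected aortas (adjusted p = 0.045), a call lost on leaving out any 1 array but the fourth non-dissected one (adjusted p of 0.0661 to 0.161).

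Platelet, neutrophil and haem genes included the higher members. Pf4 was -0.27 to 1.56 in non-dissected aortas, below every dissected aorta, with a difference of 2.48 (SE 0.54, adjusted p = 0.00467). Mmp9 was -1.95 to -0.62 in non-dissected aortas, within or near its saline range, and 2.05 higher in dissected aortas (SE 0.41, adjusted p = 0.00234). Il1r2 was 2.14 higher (adjusted p = 0.00465), the myeloid receptor gene Treml4 2.63 higher (adjusted p = 0.00523), Fgr 1.99 higher (adjusted p = 0.00913) and Lrrc15 2.26 higher (adjusted p = 0.00791). Hmox1 was -0.95 to 0.49 in non-dissected aortas and 2.47 higher in dissected aortas (SE 0.65, adjusted p = 0.0159), with adjusted p of 0.0501 without the first dissected array, 0.0743 without the second and 0.061 without the second non-dissected array. By list, 3 of 13 platelet genes, 4 of 16 neutrophil genes and 2 of 17 haem and iron genes were higher and 0 lower, against the background of 3.06%. Among the platelet genes, the call on Gp9 was lost without any 1 of 3 of the 7 arrays, and that on Treml1 without any 1 of 5. With scan day as a block Gp9 (adjusted p = 0.0653), Treml1 (0.0948) and the neutrophil gene Csf3r (0.0532) were not called.

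Several matrix genes were lower in dissected than in non-dissected aortas. Lox was 0.84 to 1.65 in non-dissected aortas, above every dissected and saline aorta, and 2.62 lower in dissected aortas (SE 0.51, adjusted p = 0.00202). Fbn1 was 2.43 to 3.83 in non-dissected aortas and 2.78 lower in dissected aortas (SE 0.56, adjusted p = 0.00243). Timp3 was 1.31 to 2.50 in non-dissected aortas and 2.95 lower in dissected aortas (SE 0.49, adjusted p = 0.000478), so the dissected aortas lay below both other groups. Tnfrsf11b, the decoy receptor osteoprotegerin, was 2.99 lower (adjusted p = 0.00528) and Xbp1 1.18 lower (adjusted p = 0.00118). Of 20 collagen genes 4 were lower and 1 higher than in non-dissected aortas (median -1.31), and of 22 matricellular genes 6 were lower and 0 higher (median -1.42). Collagens thus stood between the other groups: the list's mean level was 1.16 to 2.18 in dissected, 2.69 to 3.40 in non-dissected and -0.58 to 1.15 in saline aortas. Scan day bears on this gap, since saline arrays read 0.75 to 1.15 on the first day and -0.58 to -0.06 on the second. The 1 non-dissected array of the second day read 2.69, the lowest of its group. Against saline, 18 of 20 collagen genes rose in non-dissected aortas (median 2.98). Within the second scan day 0 of the 35 differences were called and 0 changed sign, and equal scaling left 1, Treml4.

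**Figure D4:**
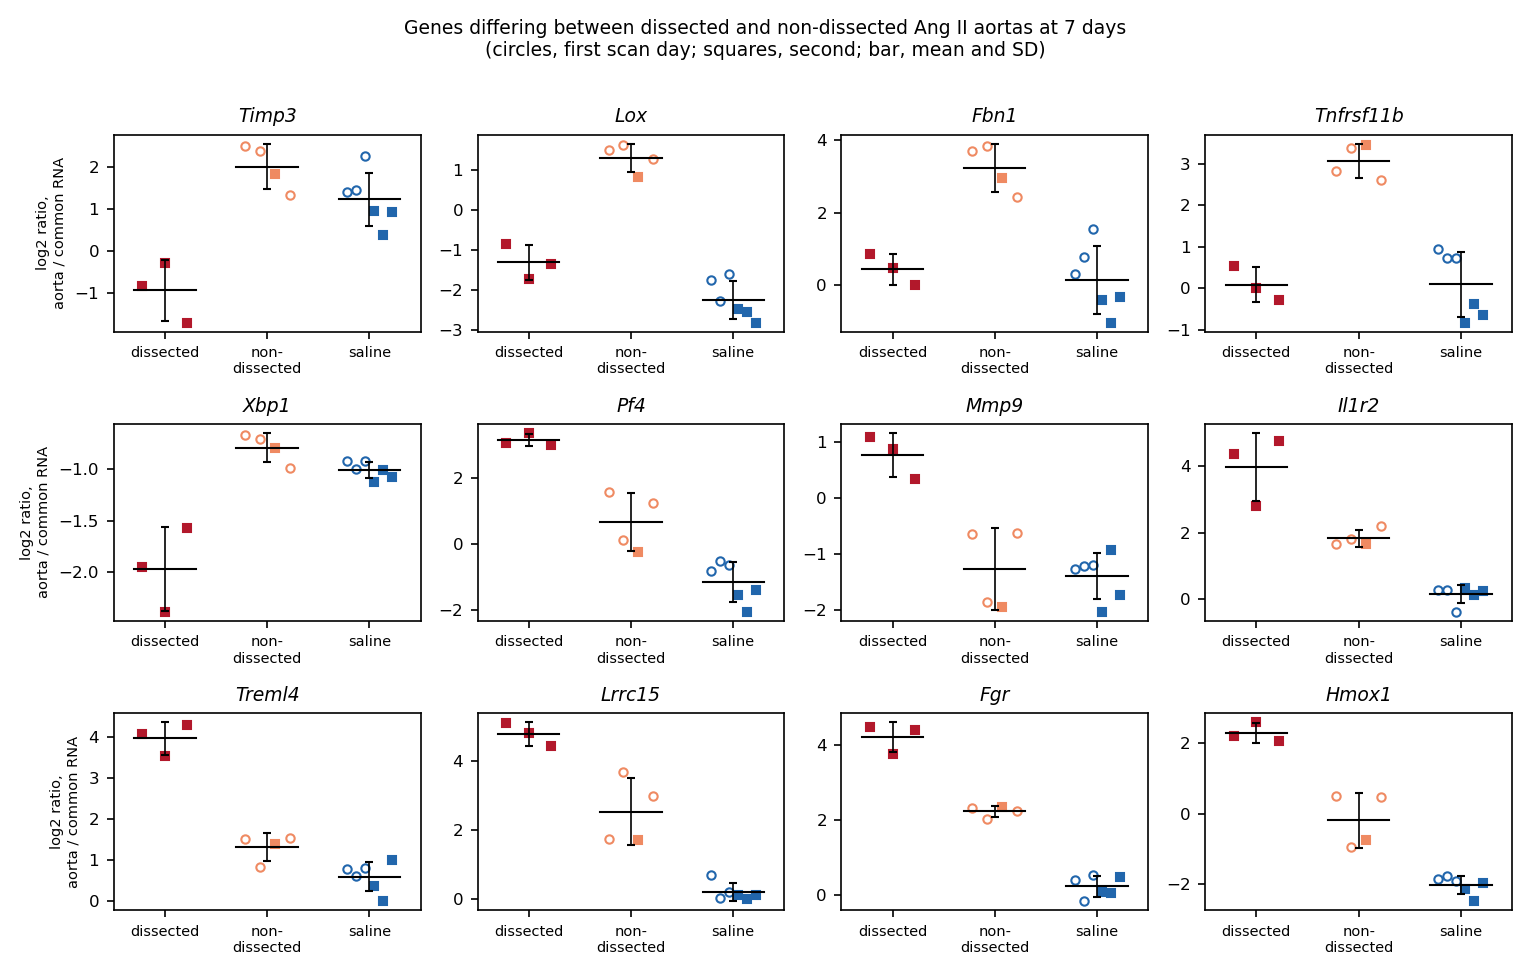
Log2 ratio of aorta to common reference RNA on each array for 11 genes that differed between dissected and non-dissected Ang II aortas whichever array was left out, and for Hmox1, with saline aortas at right. Circles mark the first scan day and squares the second, and bars give mean and SD. Timp3 and Xbp1 lie lowest in the dissected aortas, Lox, Fbn1 and Tnfrsf11b are highest in the non-dissected aortas, and the other 7 are highest in the dissected aortas.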

How the data were processed

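Gene expression in mouse suprarenal aortas was measured on 2-colour Agilent arrays, with aortic RNA in Cy5 and Universal Mouse Reference RNA in Cy3 on every array and no dye swap, per the labels. A dye effect is therefore shared by all arrays. The deposited scanner files hold mean signal and background intensity per spot. The submitters' processing notes name version 9.5.3.1 of Agilent's Feature Extraction. The authors also deposited processed values, which against the scanner files are log2 ratios of Cy5 over Cy3 (slope of 3.32 to 3.34 on the scanner's own deposited log10 ratio, column medians of -0.0675 to 0.109). They served as an alternative, and their normalization is not given in the sources used here.

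Intensities were corrected with normexp (offset 50) and normalized by loess within arrays in limma 3.58.1 (R 4.3.3). Flagged spots were left out and spots of a probe averaged. A probe entered the test when 3 or more of the 35 arrays measured it well above background in Cy5, and each gene is represented by its brightest probe, which left 18671 genes from 27825 probes. Of 41174 probes, 24375 were named by accession, 6301 by current and 2426 by older symbol, and 8072 keep the name in the file. A linear model with 7 group means over the 35 arrays (28 residual degrees of freedom) gave moderated tests with Benjamini-Hochberg adjustment. Where a probe was not above background on any array of a group, a fold is a bound computed from the lowest signals above background on those arrays.

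The 12 largest rises and falls are those called, without overlap, above background on all arrays of a group and named by a symbol. Also named were a preset list of aneurysm genes, up to 4 called members of each gene list, and the 8 largest differences in each direction from non-dissected aortas, while other list members were named after their values were seen. The members and lists were chosen with earlier results of these data known. The number of arrays limits the precision. Same-numbered dissected and saline arrays deviated together (correlations of 0.497, 0.498 and 0.130), but pairs of unlike number ran from -0.579 to 0.428, and the third dissected array correlated more with the first saline array (0.361) than with its own number. The pairing is a hint from the data alone, and a fit with the replicate number as a block was run. Results on a few genes are not reported here. The code was tested on simulated data. Alternatives changed signals, normalization, filter, model, blocks and arrays left out.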

Additional observations from a re-analysis of the deposited data

Results flagged for a closer look

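In 14 named genes a saline aorta lay far from the other 5 of its group, as judged by the gap to its nearest neighbour over the group's range. Chance gives such a gap in about 1 in 20 groups, and 221 genes were examined in 2 groups. The saline aorta numbered 5 was the far one in 8 of the 14 and lay below the others in each: Eln (1.60, others 3.00 to 3.84), Alas2 (1.96), Fgb (0.32, others 3.95 to 5.58), Retnla (1.98), Alb (0.065, others 3.30 to 4.88), Ccl8 (1.00), C1qb (1.17) and Tek (0.93). Number 1 stood apart for Lrrc15 (0.69) and Pmp22 (0.96), number 3 for Il1r2 (-0.38) and Bnip3 (-0.99), number 4 for Cenpe (-5.43) and number 6 for Fasn (5.96). Among non-dissected Ang II aortas, number 3 was low for Cd68 (-0.90) and number 1 for Lcn2 (-0.39).

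Of 35 genes chosen for description that differed between dissected and non-dissected Ang II aortas by the linear model, 33 are given here. Values are dissected minus non-dissected in log2 units. All 3 dissected arrays were scanned on the second day and 3 of the non-dissected ones on the first. Scan day and dissection are therefore hard to tell apart here too. Myeloid and platelet genes among the higher ones were Treml4 (2.63), Gp9 (2.55), Cd300lf (2.51), Pf4 (2.48), Il1r2 (2.14), Mmp9 (2.05), Fgr (1.99), Csf3r (1.95), Treml1 (1.82), Hdc (1.56), Cfp (1.30), Ctsd (1.30) and Hk3 (1.00). The other higher ones were Arg1 (3.33), Stmn3 (3.12), Pcsk1n (2.50), Hmox1 (2.47), Lrrc15 (2.26), Apln (1.40) and Tgfb1 (0.72). Stmn3 and Pcsk1n are neuroendocrine genes, whose level also spread widely among saline aortas (1.66 to 5.02 for Stmn3 and 0.75 to 4.12 for Pcsk1n). Matrix and adhesion genes among the lower ones were Itgbl1 (-3.49), Ccn3 (-3.31), Timp3 (-2.95), Ccn2 (-2.79), Fbn1 (-2.78) and Lox (-2.62). The others were Cfhr2 (-3.08), Tnfrsf11b (-2.99), F3 (-1.95), Bmp6 (-1.78), Cav2 (-1.62), Pmp22 (-1.33) and Xbp1 (-1.18). Of the 35, 12 were called without the first dissected array, 15 with scan day as a block and 35 with the replicate block.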

How the results depend on the processing

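Scaling arrays to an equal spread gave the fewest calls against saline, 2081 (6819 in the account above), and 77 against non-dissected aortas (1500 above). Against non-dissected aortas, more genes were called with processed signals and loess (2829), processed signals and median centring (2720), the deposited ratios (2815), only the groups compared (2315) and array quality weights (3918), and fewer with scan day as a block (861) or within the second scan day (8). Leaving out 1 array at a time gave 4981 to 6884 calls against saline and 704 to 1503 against non-dissected aortas. Against saline, the other alternatives gave 5742 to 9848 calls, within 1.5 times of the count above. With the replicate number as a block 7127 genes differed from saline and 1929 from non-dissected aortas. That pairing lost Gpnmb, Pdgfrb, Fasn, Esm1, Msmo1 and Cdh19, gained Pecam1, Pcsk1n and Ccn3, and changed no other call of a gene named in the text. Of 177 named calls against saline, 138 were kept whichever of the 9 arrays was left out, 53 after equal scaling and 42 under every setting. A sign turned in Myh11 (-0.01) at 1.06, 0.92 and 0.94 and in Retnla (-2.20) at 0.39, 0.024 and 0.048 with processed signals and loess, processed signals and median centring, and the deposited ratios. Tek (-1.81) turned to 0.20 with processed signals and loess, and Cd8b1 (0.57) to -0.22 with median centring. The causes were not tested. Signal limits 93 rises, with saline not above background on any array, and 389 falls, with dissected not above it on any, to bounds.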
